A study of Mus musculus with 2744 samples.

Results

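The genes described here encode proteins of the synaptic vesicle cycle and of dense-core secretory granules. They are 39 genes chosen by symbol from the 23968 genes of the count tables, and all 39 were found there. They were grouped by role into calcium sensors, SNARE proteins, synapsins and vesicle membrane proteins, Rab3 GTPases, complexins, SNARE disassembly factors, active zone proteins, granins, prohormone processing proteins, and an adaptor with the synucleins. They were chosen as genes of these known roles and not by a threshold on measured values, though with earlier results of these data known.

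The study sequenced the RNA of single mouse embryonic stem cells while they were differentiated into motor neurons in culture, in a main and a pilot experiment that its design text calls biological replicates. CEL-seq was used, in which the RNA of a cell is tagged with a barcode at its 3′ end, pooled with that of other cells and amplified by transcription. Cells of dissociated embryoid bodies were sorted singly into wells on Days 2, 3, 4, 5 and 6, and cells labelled eGFP++ were collected on Day 6 in both experiments. Cells labelled eGFP+ came from 1 plate of the main experiment on Day 6. The labels give no strain, clone or drug, and they do not say which gene drives eGFP or which gate separated eGFP+ from eGFP++.

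A neurotransmitter vesicle is docked and primed at the active zone, fuses with the plasma membrane when a SNARE complex zippers up under the control of a calcium sensor, and is then retrieved and refilled while the SNARE complex is taken apart. Dense-core granules follow a second route: granins condense peptide cargo in the trans-Golgi network, and prohormone convertases and carboxypeptidase E trim the cargo on the way to release. Motor neurons release acetylcholine from small vesicles and also hold dense-core granules.

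Promoters of granin and synapsin genes are textbook examples of control by the cyclic AMP response element, which is bound by CREB, and by the RE1 element, which is bound by the repressor REST. Windows from 250 bases before to 50 bases after the RefSeq start (GRCm38.p6) were matched for 33 of the 39 genes. The palindrome TGACGTCA, the full cyclic AMP response element, was present in 5 of these 33 genes (15.2%) and in 1.79% of all 32851 windows. The 5 matches follow with the element in capitals, each written 5′ to 3′ on the strand of its gene, because 2 of the 5 genes, Scg2 and Chgb, had no read on Day 2 in either experiment. The element began 72 bases before the start of Chgb, 68 before Scg2, 78 before Pcsk1, 159 before Syn1 and 7 before Napa.
Scg2 (chr1:79440076-79440105, minus strand): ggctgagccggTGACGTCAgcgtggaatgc
Chgb (chr2:132781559-132781588, plus strand): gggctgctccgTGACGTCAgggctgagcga
Pcsk1 (chr13:75089768-75089797, plus strand): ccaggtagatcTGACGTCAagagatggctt
Syn1 (chrX:20921059-20921088, minus strand): caaaggctgacTGACGTCActcactagccc
Napa (chr7:16098562-16098591, plus strand): gcaggcctgggTGACGTCAacgcagcgggc

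The left part of RE1, TTCAGCACC, was found on either strand in the windows of Scg2, Syn1 and Unc13a and in 0.371% of all windows. The letters TATAAA were found in Chga and Rab3b and in 13.6% of all windows, and no match overlapped another. They began at base 6 downstream of the start in Chga and 120 bases before the start in Rab3b. A right part of RE1 was searched as well and was found in Unc13a alone of the 33 genes, and in 0.137% of all windows. Scg2 and Syn1 each held the cyclic AMP response element and the left part of RE1, but not the right part. These matches began 68 and 7 bases before the start of Scg2, and 159 and 232 before that of Syn1. Both matches of Syn1, which encodes a vesicle-coating phosphoprotein, lie in one stretch of 120 bases, shown with both in capitals.
Syn1 (chrX:20921044-20921163, minus strand): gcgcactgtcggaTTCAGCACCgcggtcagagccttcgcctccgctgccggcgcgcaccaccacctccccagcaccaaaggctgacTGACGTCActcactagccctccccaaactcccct
These matches are letters in a window, and binding was not measured. The 5 genes did not share a time course: Scg2 and Chgb reads were first seen in quantity on Days 5 and 6, Napa was read in 46.2% of main cells on Day 2 already, and Pcsk1 and Syn1 stayed in under 8% of cells of every group.

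After wells with fewer than 500 detected genes were left out, 2448 of 2744 cells remained, between 57 and 422 per day in either experiment. A sum of all cells of a group and experiment held 16370502 to 100972780 gene reads. Main cells had a median of 4439 detected genes on Day 2 and of 2310.5 on Day 6, whereas pilot cells had 1810 and 3361. Median gene reads per cell on these days were 179910 and 143612 in main and 627358 and 870697 in pilot cells. Shares of cells with a read were taken after every cell was thinned at random to 10000 gene reads, which evens reads per cell only. After thinning, the slope of the share over Days 2 to 6 was above 0 for 36.7% of all genes tested in main and 77.2% in the pilot. A shift common to many genes thus remains between days. Intervals of shares are 95% Wilson intervals that cover counting error only. For a gene seen in no cell, the limit that 3 counts give for the share of cells with a read is 0.711% to 3.61% in a main group and 4% to 7.69% in a pilot group. That limit is for cells with a read at this depth, not for cells that express the gene. Day 4 was the weakest time point, with 1 main plate and 1 pilot plate on which 46.9% and 40% of wells failed the filter. Levels are CPM, the counts of the summed cells relative to a fixed total of reads, with TMM scaling. There are no molecular identifiers, and where a gene was detected in a cell it had 13 reads at the median in main and 73 in pilot cells, so CPM can rest on few cells.

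Cells with reads of several of the genes were rare up to Day 4 and more common on Days 5 and 6. In the main experiment the median cell had a read of 1 of the 39 genes on Days 2, 3 and 4, of 2 on Day 5 and of 3 on Day 6. In the pilot the medians were 0 on Days 2 to 4 and 2 on Days 5 and 6. Cells with a read of 5 or more of the genes made up 1.41% of main cells on Day 2, 0.885% on Day 4, 14.1% on Day 5 and 29.7% on Day 6. The pilot had no such cell on Days 2 to 4, 5.33% on Day 5 and 25.4% on Day 6. Day 6 eGFP++ cells had the highest medians of their experiment, 6 genes (main) and 3 genes (pilot), with 63.5% and 30.8% of cells at 5 or more. At 10 or more genes were 4.80% of Day 6 and 13.5% of eGFP++ cells in main. In the pilot it was the other way, with 7.04% of 71 Day 6 cells and 0% of 39 eGFP++ cells. The single eGFP+ plate was lower, with a median of 2 genes and 13.3% of cells at 5 or more. The genes took 0.0260% of the thinned reads of main cells on Day 2, 0.164% on Day 6 and 0.286% in eGFP++, and 0.0420%, 0.144% and 0.239% in the pilot.

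**Figure D1:**
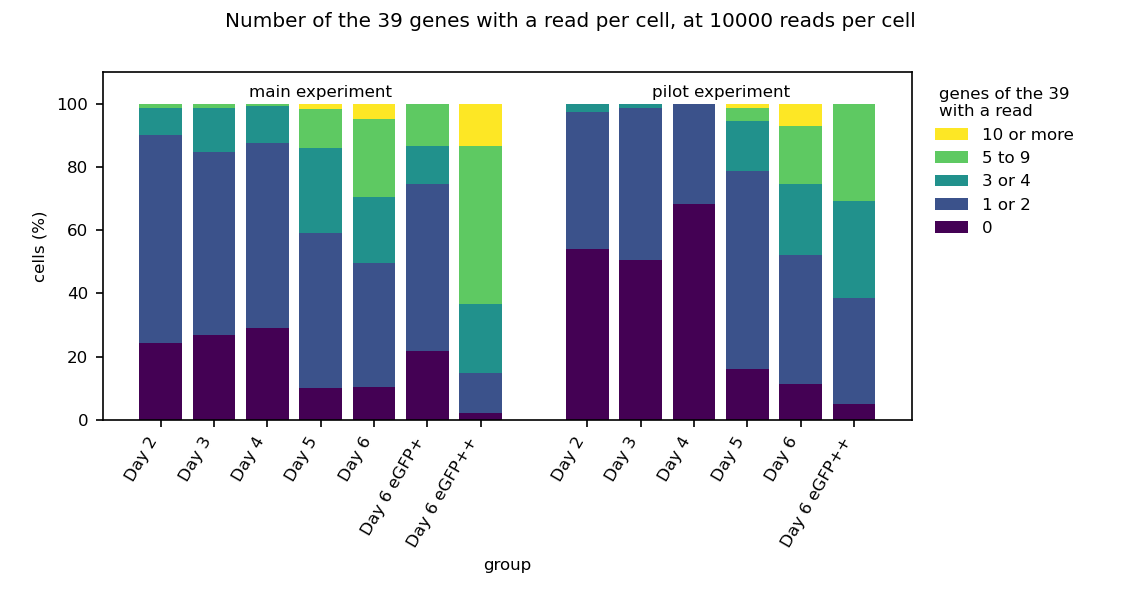
Share of cells (%, vertical axis) with a read of 0, 1 or 2, 3 or 4, 5 to 9, or 10 or more of the 39 genes, for each group of the main (left) and pilot (right) experiment, after thinning to 10000 reads per cell. The lighter classes widen from Day 5 on and are widest in main eGFP++ cells, where 63.5% of cells had 5 or more genes.

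An onset day was read for each gene and experiment as the first of Days 3 to 6 from which the interval of the share of cells stayed above that of Day 2. By this rule 21 genes had an onset in the main experiment, 20 of them among the 29 of the set that had a read in at least 20 thinned cells. Of all 11687 genes with that many, 11% had one. The pilot, with fewer cells, gave 7 of the 29 genes, against 12.5% of all genes. No gene of the set had an onset on Day 3, where 2.25% of all genes did in the main experiment, but 3 did there without thinning and 1 did at 5000 reads per cell. In the main experiment Apba2 came on Day 4, 8 genes on Day 5 (Syt11, Rab3a, Rims2, Scg3, Scg5, Chgb, Cpe and Sncb) and 12 on Day 6 (Syt1, Snap25, Vamp2, Rab3c, Unc13a, Bsn, Pclo, Scg2, Pcsk2, Pcsk1n, Resp18 and Sncg). Of all genes in the main experiment, 1.13% came on Day 4, 5.10% on Day 5 and 2.47% on Day 6. In the pilot Syt11 and Apba2 came on Day 5, and Scg3, Scg5, Chgb, Cpe and Sncg on Day 6. The 2 of 29 genes on pilot Day 5 are near the background of 6.45% of all genes, and the 5 of 29 on Day 6 stand against 5.69%. All 7 pilot genes also had an onset in the main experiment, on the same day for Syt11 and Sncg and 1 day earlier for the other 5. Syt11, Nsf and Napa were in at least 5% of Day 2 cells of both experiments. Without thinning, 18 genes had an onset in either experiment, in place of 21 and 7.

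**Figure D2:**
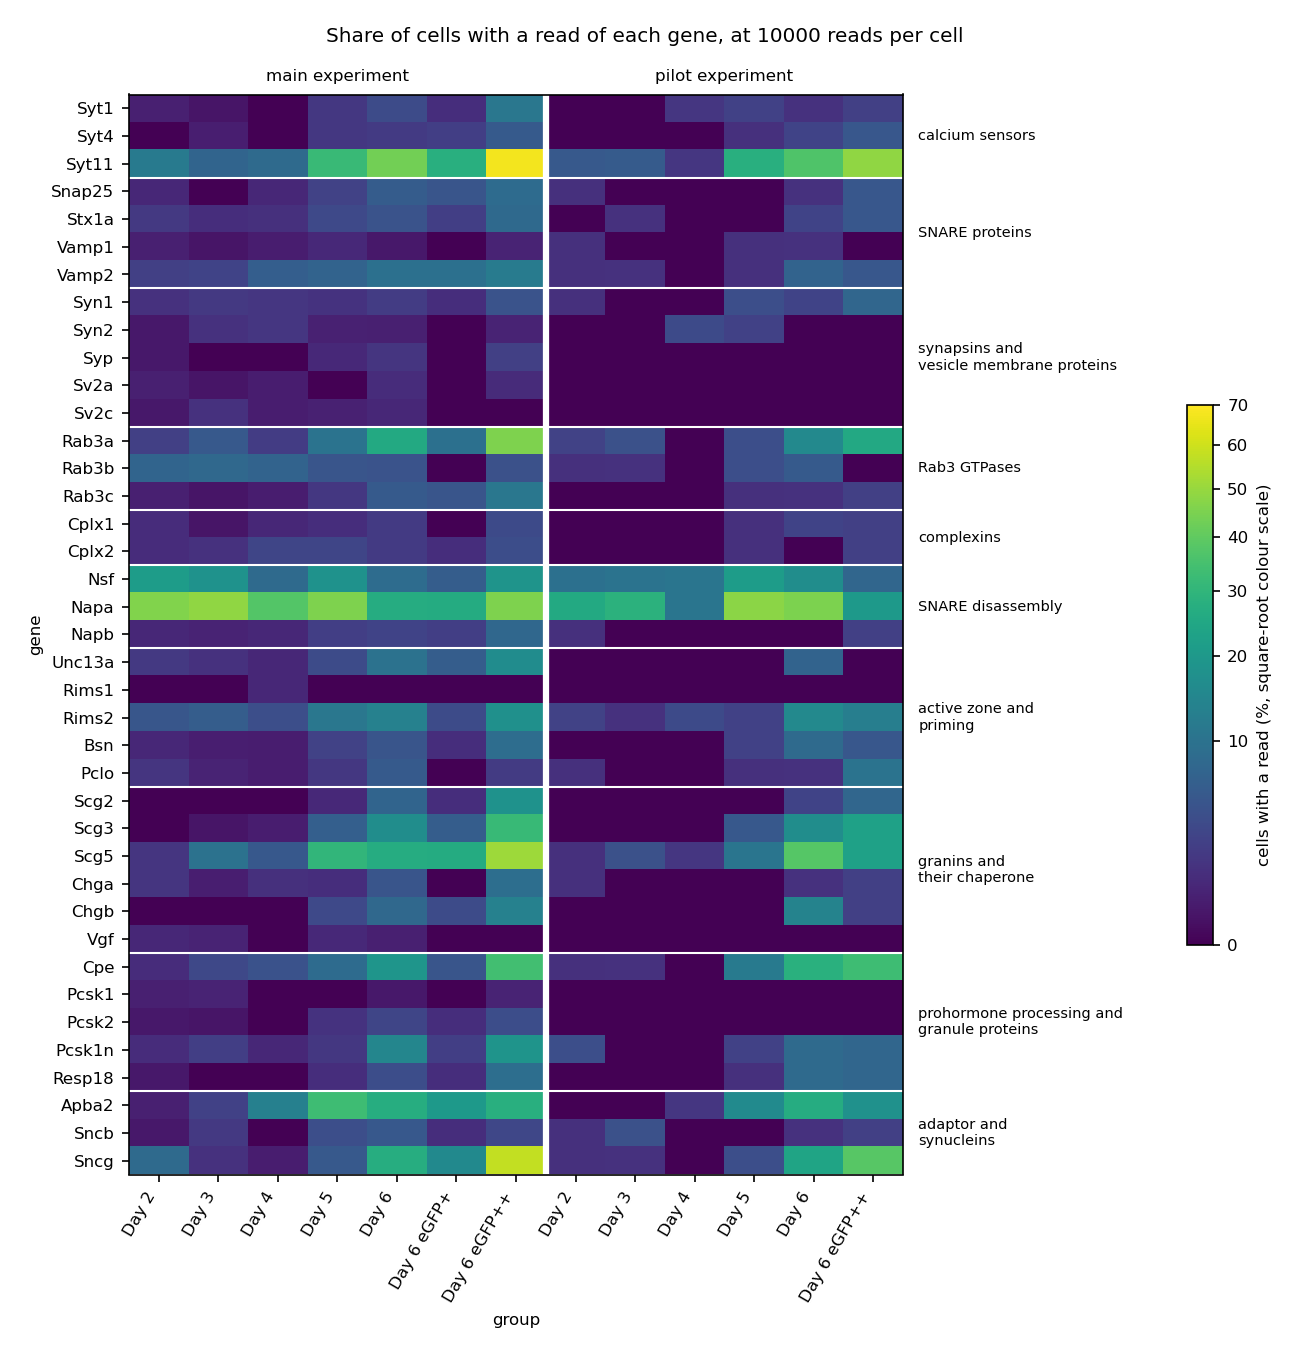
Share of cells with a read (colour, %, square-root scale) of each of the 39 genes (rows, in blocks of 1 role) in each group (columns) of the main and pilot experiments, at 10000 reads per cell. Napa and Nsf are filled in every column, Syt11, Rab3a, Scg3, Scg5, Cpe, Apba2 and Sncg brighten from Day 4 or 5 on, and Rims1, Vgf, Pcsk1 and Sv2c stay dark throughout.

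Among the calcium sensors, synaptotagmin 11 (Syt11, chr3:88744700-88775164), which lacks calcium binding and acts in vesicle traffic, was present from the first day. Its share of main cells was 11.8%, 7.35%, 8.41%, 32.2% and 43.2% on Days 2 to 6, 27.7% of eGFP+ and 67.4% of eGFP++ cells. The pilot shares of Syt11 were 5.41%, 5.80%, 1.75%, 28% and 36.6%, and 48.7% in eGFP++. The step between Day 4 and Day 5 was seen in both experiments, and the plates of a main day did not overlap across it, with 4.44% to 12.9% on Day 4 and 26.4% to 42.1% on Day 5. On Day 2 its 4 main plates spread from 1.16% to 26.1%. Synaptotagmin 1 (Syt1, chr10:108497650-109010982), the fast calcium sensor of transmitter release, was in 0.563%, 0.237%, 0%, 1.84% and 3.67% of main cells and 11% of eGFP++ cells. Pilot shares of Syt1 were 0%, 0%, 1.75%, 2.67%, 1.41% and 2.56%. Syt4, a synaptotagmin linked to dense-core granules, was in 0% to 1.98% of main cells on Days 2 to 6 and in 5.67% of main and 5.13% of pilot eGFP++ cells. Its exons overlap an antisense transcript, and no source used here states the strand setting of the counting, so reads of the pair cannot be told apart.

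Of the SNARE proteins, which form the fusion complex, Vamp2 (synaptobrevin 2, on the vesicle) was in 2.54%, 2.84%, 6.19%, 7.06% and 9.60% of main cells on Days 2 to 6 and in 12.1% of eGFP++ cells. Its pilot shares were 1.35%, 1.45%, 0%, 1.33% and 7.04%, and 5.13% in eGFP++. Snap25, its partner on the plasma membrane, was in 0.845%, 0%, 0.885%, 2.76% and 5.93% of main cells and 8.51% of eGFP++ cells. In the pilot Snap25 was in 1.35% of Day 2 cells, in none on Days 3 to 5 and in 1.41% on Day 6. Stx1a, the syntaxin that anchors the complex in the plasma membrane, was in 1.97%, 1.18%, 1.33%, 3.37% and 4.52% of main cells on Days 2 to 6, 8.16% of eGFP++ cells and at most 5.13% of the cells of a pilot group. Vamp1, the other vesicle SNARE of motor neurons, was in at most 1.41% of the cells of any group. For Snap25 and Vamp2 the pilot shares of Day 2 and Day 6 have overlapping intervals.

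Napa (alpha-SNAP, chr7:16098458-16117975) and Nsf (the ATPase it recruits) serve membrane fusion in all cells. Napa was in 46.2%, 48.8%, 37.6%, 45.4% and 26.8% of main cells and in 25.7%, 29%, 10.53%, 48% and 45.1% of pilot cells on Days 2 to 6. Nsf was in 21.4%, 18.2%, 8.41%, 18.1% and 8.76% of main cells and in 9.46%, 10.1%, 10.53%, 21.3% and 16.9% of pilot cells. Neither kept one direction in both experiments. Napb, the SNAP form enriched in brain, was in 0.845% of main cells on Day 2, 2.82% on Day 6 and 7.80% in eGFP++, and in 1.35%, 0% and 2.56% of pilot cells.

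Of the synapsins and vesicle membrane proteins, Syn1, which tethers vesicles in the reserve pool, was in 1.41%, 1.90%, 1.77%, 1.53% and 2.26% of main cells on Days 2 to 6 and in 4.61% of eGFP++ cells, and in 1.35%, 0%, 0%, 4%, 2.82% and 7.69% of pilot cells. Syp (synaptophysin, the most used marker of small vesicles) reached 1.69% of main Day 6 cells and 2.48% of eGFP++ cells and was in no thinned pilot cell. Sv2c was in at most 1.42% of the cells of any group, and Sv2a in at most 1.13%. Syn2 had a single high value, 32.6 CPM in the pilot on Day 4, which came from 3.51% of cells, beside 0 to 3.75 CPM in all other groups. The exons of Syn1 overlap those of Araf, those of Syn2 overlap Timp4, and those of Syp an antisense transcript, all on the opposite strand.

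Rab3 GTPases ride on vesicles and steer their docking. Rab3a (chr8:70754679-70758677), the main form in brain, was in 2.54%, 5.45%, 2.21%, 10.1% and 26% of main cells on Days 2 to 6, in 9.64% of eGFP+ and in 45.7% of eGFP++ cells. Pilot shares were 2.70%, 4.35%, 0%, 4% and 15.5%, and 25.6% in eGFP++. Rab3c had its main onset on Day 6, at 0.563% of main cells on Day 2, 5.65% on Day 6 and 11% in eGFP++, and at 0%, 1.41% and 2.56% in the pilot. Rab3b had no onset, with 7.32%, 8.06%, 7.08%, 4.91% and 4.52% of main cells on Days 2 to 6, none of the eGFP+ and 4.26% of the eGFP++ cells. In the pilot Rab3b was in 1.35% of Day 2, 5.63% of Day 6 and no eGFP++ cells. Exons of Rab3a overlap Mpv17l2 and those of Rab3b an antisense transcript on the opposite strand. The complexins, which clamp and prime the SNARE complex, were read in few cells: Cplx1 was in at most 3.55% of the cells of any group and Cplx2 in at most 3.90%.

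Of the active zone genes, Rims2 had a main onset on Day 5 and Unc13a, Bsn and Pclo on Day 6, while Rims1 had none and no gene of this role had one in the pilot. Rims2, a scaffold that recruits calcium channels, was in 5.07%, 6.16%, 3.98%, 11% and 13.6% of main cells on Days 2 to 6 and 17.7% of eGFP++ cells, and in 2.70%, 1.45%, 3.51%, 2.67%, 15.5% and 12.8% of pilot cells. Unc13a (Munc13-1), which primes vesicles for fusion, was in 1.97%, 1.42%, 0.885%, 3.68% and 9.89% of main cells and 16.7% of eGFP++ cells. In the pilot Unc13a was in no thinned cell on Days 2 to 5, in 7.04% on Day 6 and in none of the eGFP++ cells. Its exons overlap Colgalt1 on the opposite strand. Rims1, the paralogue of Rims2, had no read on Day 6 in either experiment and was in at most 0.885% of the cells of any group. Bsn and Pclo, the giant scaffolds bassoon and piccolo, were in 0.845% and 1.69% of main Day 2 cells, 4.80% and 5.65% of Day 6 cells and 8.87% and 2.13% of eGFP++ cells. Among pilot cells Bsn was in none, 8.45% and 5.13% of these cells and Pclo in 1.35%, 1.41% and 10.3%.

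Among the granins and their chaperone, Scg5 (7B2, the chaperone of convertase 2, chr2:113776362-113829121) was in 1.69%, 9.95%, 5.31%, 30.4% and 26.8% of main cells on Days 2 to 6, 26.5% of eGFP+ and 51.1% of eGFP++ cells. Pilot shares of Scg5 were 1.35%, 4.35%, 1.75%, 10.7% and 38%, and 23.1% in eGFP++. Scg3 (secretogranin III, a granule-membrane adaptor, chr9:75643189-75684056) was in 0%, 0.237%, 0.442%, 6.44% and 16.9% of main cells, in 6.02% of eGFP+ and in 31.9% of eGFP++ cells. The pilot shares of Scg3 were nearly the same, at 0%, 0%, 0%, 5.33% and 16.9%, and 23.1% in eGFP++. Chgb (chromogranin B) was in no thinned cell on Days 2 to 4, in 3.37% and 7.91% of main cells on Days 5 and 6 and in 14.1% of pilot cells on Day 6. Scg2 (secretogranin II, chr1:79434669-79440120) was in no thinned cell until 0.920% of main cells on Day 5, then in 7.34% on Day 6 and 18.1% in eGFP++, and in 2.82% and 7.69% of pilot Day 6 and eGFP++ cells. Chga (chromogranin A) was in 1.69% of main cells on Day 2, 4.80% on Day 6 and 9.22% in eGFP++, and in 1.35%, 1.41% and 2.56% of pilot cells. Vgf, another granin, was in at most 0.920% of the cells of any group.

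Cpe (carboxypeptidase E, chr8:64592542-64693054), which removes the basic residues left on cut prohormones, was in 1.13%, 3.32%, 4.42%, 8.59% and 18.9% of main cells on Days 2 to 6, 4.82% of eGFP+ and 34% of eGFP++ cells. In the pilot it was in 1.35%, 1.45%, 0%, 12% and 28.2%, and 33.3% of eGFP++ cells. Pcsk1n (proSAAS, an inhibitor of convertase 1) was in 1.13%, 2.37%, 0.885%, 1.84% and 14.7% of main cells and 18.8% of eGFP++ cells. Pilot shares of Pcsk1n were 4.05%, 0%, 0%, 2.67%, 8.45% and 7.69%. Resp18, a granule protein of endocrine cells and neurons, was in 0.282%, 3.95% and 9.22% of main Day 2, Day 6 and eGFP++ cells and in 0%, 8.45% and 7.69% of pilot cells. Of the convertases, Pcsk2 was in 3.11% of main Day 6 cells and in no thinned pilot cell, and Pcsk1 was in at most 0.711% of the cells of any group. Exons of Pcsk1n overlap those of Eras, a gene known from embryonic stem cells, on the opposite strand, and the part of Eras reads in its early values was not tested.

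Apba2 (Mint2, an adaptor that binds the amyloid precursor protein, chr7:64501706-64753878) had the earliest onset of the set. Its shares of main cells were 0.563%, 2.61%, 13.3%, 33.4% and 27.1% on Days 2 to 6, 20.5% in eGFP+ and 28% in eGFP++. Pilot shares were 0%, 0%, 1.75%, 16% and 26.8%, and 17.9% in eGFP++. Main plates spanned 0% to 3.70% on Day 3, 8.24% to 17.6% on Day 4 and 28.8% to 39.5% on Day 5, with no overlap between these days. Sncg (gamma-synuclein, chr14:34370274-34374789), abundant in peripheral and motor neurons, was lowest on Day 4 in both experiments: 8.45%, 1.42%, 0.442%, 5.52% and 27.1% of main cells, then 57.8% of eGFP++ cells. Pilot shares of Sncg were 1.35%, 1.45%, 0%, 4%, 23.9% and 38.5%. Sncb (beta-synuclein) stayed at or under 5.37% of the cells of every group. Of the 39 genes, 8 reached 25% of cells in at least 1 group and 11 never reached 5%.

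The comparison of Day 6 with Day 2 asked which of the genes differed between the first and the last day sampled. Reads summed per group and experiment were fitted with edgeR's quasi-likelihood test over 16080 genes, and all 39 genes passed its filter. Apba2, Scg2, Sncg and Syt11 were called higher at an adjusted p under 0.05, 4 of 39 where 0.585% of all genes were, and none was called lower where 0.249% of all genes were. Main Apba2 was at 0.634 CPM on Day 2 and 124 on Day 6, and pilot Apba2 at 0.0201 (a single read) and 84.6, a log2 change of 9.24 ± 1.46 (SE; edgeR adjusted p = 0.0197). Syt11 was at 17.6 and 202 CPM on these days in main sums and at 10.8 and 177 in pilot sums, a log2 change of 3.75 ± 0.72 (edgeR adjusted p = 0.0424). Sncg was at 7.67 and 310 CPM in main sums and at 0.804 and 430 in pilot sums, a log2 change of 7.16 ± 1.41 (edgeR adjusted p = 0.0460). Both Day 6 values of each of these 3 genes lay above both Day 2 values.

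Scg2 had no read on Day 2 in either experiment and 41.6 and 26.1 CPM on Day 6. Set against a floor of 3 reads per sum, the scaled read ratio of Scg2 was 1103 in main and 449 in pilot sums. Scg2 was called higher (edgeR adjusted p = 0.0328). Chgb also had no read on Day 2 and had 22.2 and 28.1 CPM on Day 6. Its ratios were 587 and 483, and it did not pass (edgeR adjusted p = 0.128). These ratios are not lower limits of the change, because reads of a cell are not independent counts. A detected gene had 13 reads per cell at the median in main and 73 in pilot cells, so a single cell can exceed the floor. In the pilot, Scg2 was in 2.82% of thinned Day 6 cells. Scg3, at 0.0270 and 0 CPM on Day 2 and 58.2 and 38.3 on Day 6, missed the threshold (edgeR adjusted p = 0.0509). Of the rest, Cpe was at 2.16 and 8.80 CPM on Day 2 and at 62.2 and 109 on Day 6, and Rab3a at 2.31 and 5.59 and at 80.3 and 37.7. Napa was at 124 and 237 CPM on Day 2 and at 77.3 and 169 on Day 6, and Nsf at 40.1 and 52.9 and at 31.8 and 43.8.

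**Figure D3:**
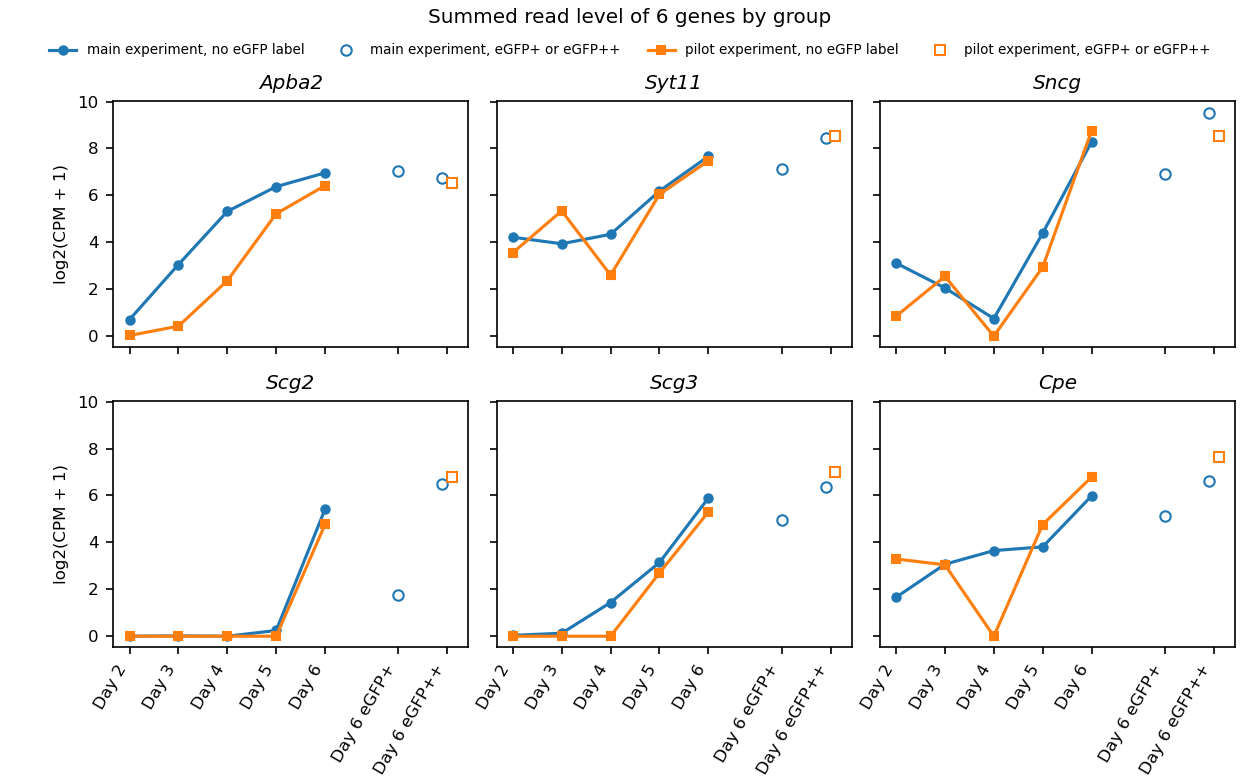
Summed read level, as log2(CPM + 1), of 6 genes in each group (horizontal axis) of the main (circles) and pilot (squares) experiments, with lines through Days 2 to 6 and open symbols for eGFP+ and eGFP++ cells. Apba2 is higher on each day than on the day before in both experiments, Scg2 is at or near 0 until Day 5 and reaches 41.6 and 26.1 CPM on Day 6, and Sncg is lowest on Day 4.

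Over the whole set the fitted log2 change was above 0 for 34 of 39 genes, with a median of 4.01 against 0.17 over all genes. Both Day 6 sums lay above both Day 2 sums for 28 of 39 genes, where 27.5% of all genes did so, and below for none, where 20.7% of all genes did so. The 5 genes with a change below 0 were Snap25, Vamp1, Nsf, Napa and Rims1. At an unadjusted p under 0.05 in edgeR there were 17 of the 39 genes and 2206 of all 16080. edgeR was also run on the number of cells with a read in place of reads, counted without thinning here and below. It tested 30 of the genes and called 21 higher, where 14.9% of all genes were, and none lower, where 15.8% were called so. These 21 included all 4 above together with Scg3, Scg5, Chgb, Cpe, Rab3a, Rab3c, Rims2, Unc13a, Bsn, Snap25, Stx1a, Vamp2, Syp, Syt1, Syt4, Pcsk1n and Resp18. Snap25 had a log2 change of 2.83 by cells, though its change by reads was below 0. DESeq2 called 17 of 39 higher, where 8.10% of all genes were, and none lower, where 4.55% were.

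The 4 calls rested on both experiments. Apba2 was the only one called without the main sum of Day 2 or of Day 6, and none was called without the pilot sum of either day. Scaling to spike-in reads moved the median of all genes to -2.02 and that of the set to 1.84, with 27 of 39 above 0. It called 4 of the 39 higher (Scg3 in place of Syt11), beside 84 of all 16080 genes. Napa was called lower, as were 2062 of all 16080 genes.

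**Figure D4:**
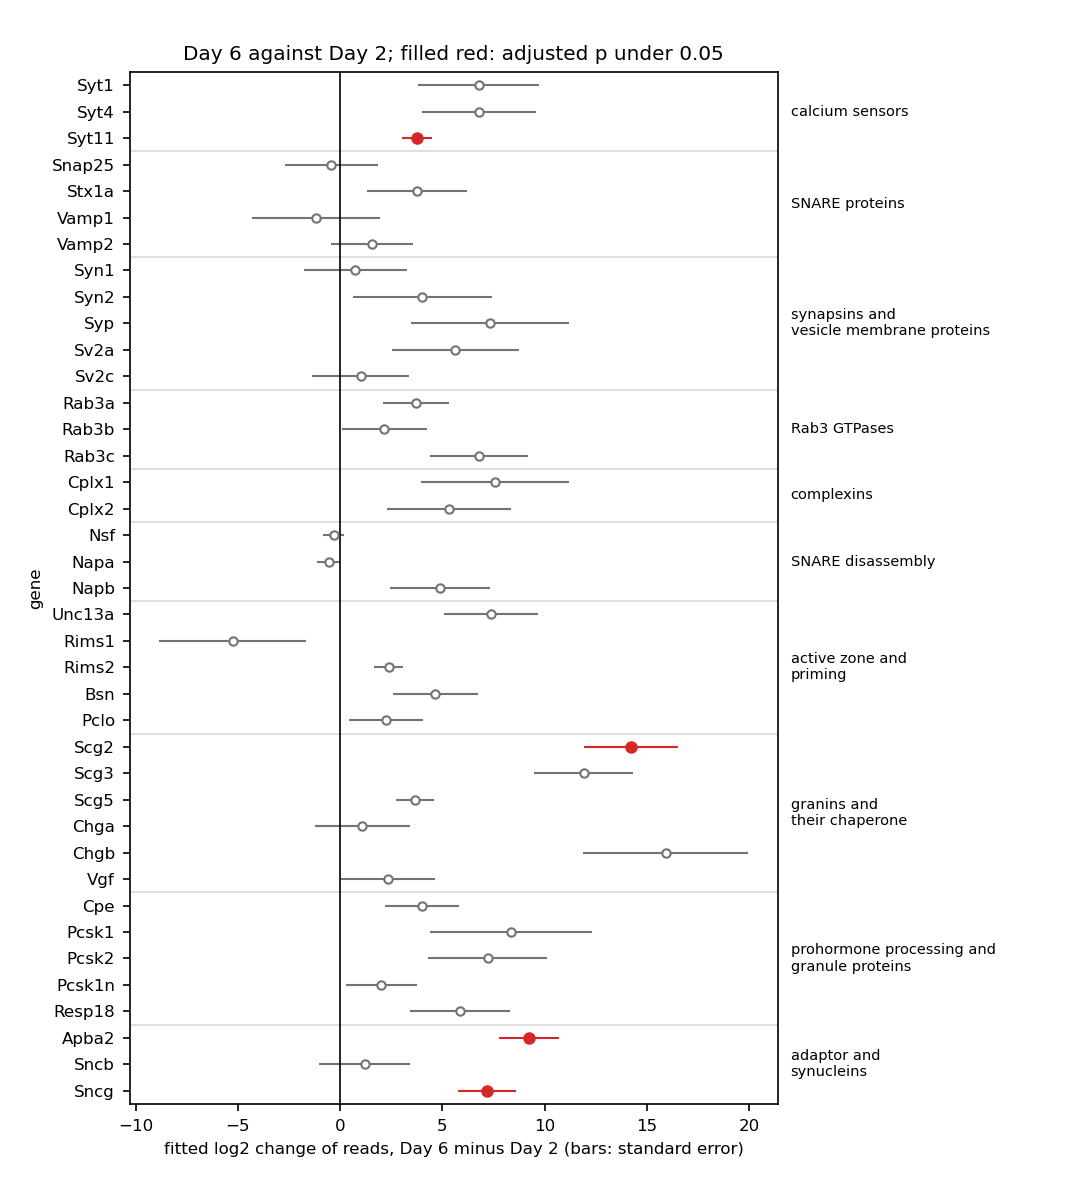
Fitted log2 change of reads from Day 2 to Day 6 (horizontal axis; bars are standard errors from edgeR on 12 sums) for the 39 genes in blocks of 1 role. Filled red points are the 4 genes with an adjusted p under 0.05 (Syt11, Scg2, Apba2 and Sncg), and most open points have bars wider than those of Syt11, Nsf, Napa and Rims2.

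The share of cells was also tested for a slope across Days 2 to 6, with an exact permutation test that reassigned days inside an experiment. Of the 39 genes, 29 had a read in at least 20 thinned cells and were tested. Scg3 rose by 3.96 percentage points of cells per day (adjusted p = 0.0344), Cpe by 5.25 (adjusted p = 0.0412) and Apba2 by 7.67 (adjusted p = 0.0440). These 3 of 29 genes compare with 3.82% of all 11687 genes called rising, and no gene of the set was called falling, where 1.75% were. All 29 mean slopes were above 0, against 59.4% over all genes. In the main experiment alone 26 of 29 slopes were above 0 against 36.7% of all genes, and in the pilot alone 27 of 29 against 77.2%. The filter counts cells of Days 2 to 6 together, so a gene can pass it through the days on which it is high. Without the filter 36 of 39 mean slopes were above 0, against 54.8% of all genes. The largest slope was that of Syt11, 8.61 points per day, which did not pass (permutation adjusted p = 0.0746), nor did Scg5 at 7.52 (permutation adjusted p = 0.0634). No call remained without thinning or without the filter on rare genes, and Cpe alone passed without the 2 plates of many failed wells. A single experiment allows no p under 0.0167 and cannot pass.

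Between neighbouring time points none of the 39 genes was called by edgeR. For Day 4 against Day 2 the fitted log2 change was above 0 in 14 of 39 genes with a median of -0.64 (all genes 0.06), where 0.0684% of all genes were called higher and 0.00622% lower. For Day 5 against Day 4 it was above 0 in 37 genes with a median of 2.43 (all genes 0.13), and for Day 6 against Day 5 in 34 with a median of 2.13 (all genes 0.00), where 0% of all genes were called in either. At an unadjusted p under 0.05 in edgeR there were 8, 9 and 5 of the 39 genes in these 3 comparisons, and 1082, 595 and 510 of all 16080. The medians moved with single sums. For Day 4 against Day 2 it was -2.51 without the main and -0.05 without the pilot Day 4 sum, with 8 and 18 genes above 0. For Day 5 against Day 4 it was 4.64 without the main Day 4 sum, and for Day 6 against Day 5 it was 1.23 without the pilot Day 6 sum. With cells counted in place of reads, Apba2, Cpe and Scg5 were called higher and Sncb and Sncg lower on Day 4 than on Day 2, where 4.31% of all genes were called higher and 3.88% lower. By the same count Scg3, Scg5, Sncb and Sncg were called higher on Day 5 than on Day 4 (1.66% of all genes, with none of the 39 lower against 0.791%), and Pcsk1n, Rab3a, Scg2, Scg3 and Sncg higher on Day 6 than on Day 5 (1.13% of all genes, with none lower against 1.09%). DESeq2 called Apba2 and Syn2 higher on Day 4 than on Day 2, where 2.49% of all genes were, and Pcsk1n, Sncb and Sncg lower, where 1.31% were. It called Bsn, Resp18, Sncb, Sncg and Syt4 higher on Day 5 than on Day 4, where 0.703% of all genes were, and none of the 39 lower, where 0.454% were. It called Scg2 and Sncg higher on Day 6 than on Day 5, where 0.317% of all genes were, and none of the 39 lower, where 0.485% were. Values of Day 4 rest on few cells, 57 in the pilot, where 24 of the 39 genes had no read.

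Day 6 eGFP++ cells were compared with Day 6 cells that carry no eGFP label. No gene of the set was called by edgeR, where 0% of all genes were called higher and 0.0311% lower. The fitted log2 change was above 0 for 25 of 39 genes with a median of 0.84, against -0.52 over all genes, and 1 gene, Nsf, had an unadjusted p under 0.05 (edgeR unadjusted p = 0.0478), as had 1011 of all 16080. Without the pilot eGFP++ sum 16 of 39 genes were above 0 and the median was -0.30, against -0.57 over all genes in that fit. Without the main Day 6 sum the median was 0.42, and without the pilot Day 6 sum it was 1.47. Read ratios inside each experiment, without TMM scaling and with a floor of 3 reads per sum, were also taken, for the 39 genes only. In main sums 29 genes were higher and 9 lower in eGFP++, with a median log2 ratio of 0.68. In pilot sums 24 were higher and 13 lower, with a median of 0.93. DESeq2 called none of the 39, where 0.417% of all genes were higher and 2.85% lower. The count of cells also called none, where 0.174% were higher and 1.14% lower. Both eGFP++ sums lay above both Day 6 sums for 15 genes, where 12.3% of all genes did so: Syt4, Syt11, Snap25, Stx1a, Syn1, Rab3a, Nsf, Napb, Rims2, Bsn, Scg2, Scg3, Scg5, Chga and Resp18. They lay below for Sv2c alone, where 20.9% of all genes did so. Rab3a was at 80.3 and 37.7 CPM on Day 6 and at 168 and 206 CPM in eGFP++ cells, and Scg2 at 41.6 and 26.1 and at 89.5 and 111 CPM. Apba2 did not differ in this way, with 124 and 84.6 CPM on Day 6 and 107 and 90.6 CPM in eGFP++ cells.

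By shares of main cells, the intervals of 11 genes lay above those of Day 6 in eGFP++ cells, where 6.19% of all genes did so: Syt1, Syt11, Rab3a, Nsf, Napa, Napb, Scg2, Scg3, Scg5, Cpe and Sncg. None of the 39 had its interval below, where 4.25% of all genes did. In the pilot, with 39 eGFP++ cells, none of the 39 lay above or below, where 0.214% and 6.38% of all genes did. Shares were higher in eGFP++ than in Day 6 cells for 32 genes and lower for 6 in the main experiment, and higher for 17, lower for 14 and equal for 8 in the pilot. Chgb (14.1% of Day 6 and 2.56% of eGFP++ cells), Unc13a (7.04% and 0%) and Apba2 (26.8% and 17.9%) were among the 14. So were Nsf, Napa and Scg5 (7.69% and 16.9%, 20.5% and 45.1%, and 23.1% and 38%, eGFP++ first), whose main intervals lay the other way. Directions of shares were counted for the 39 genes only, not over all genes. Median detected genes were 2644 in eGFP++ and 2310.5 in Day 6 cells of main, and 2271 and 3361 in the pilot. The part of this in the shares of eGFP++ cells was not tested. The eGFP+ plate had lower shares than main eGFP++ cells for 36 of 39 genes, with intervals below for 13, where 14.5% of all genes were, and above for none, where 0.744% were. Against main Day 6 cells eGFP+ was lower for 36 genes, with intervals below for Rab3a, Rims2, Scg3, Cpe and Pcsk1n, where 8.52% of all genes were, and above for none, where 0.0513% were. The eGFP+ cells had the fewest detected genes of the main groups, a median of 1524 against 2310.5 on main Day 6, and the part of this in their shares was not tested.

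Within Day 6, the genes went with general neuron markers (Tubb3, Stmn2, Map2, Elavl3, Elavl4 and Dcx). In the main experiment 143 thinned Day 6 cells had a read of 3 or more of these markers, 164 of 0 or 1, and 47 lay between. The share of cells was higher in the marker-rich cells for 35 of 39 genes with a median difference of 5.95 percentage points, against 58.4% of all genes and 0.716 points. In the pilot, with 27, 39 and 5 cells, it was higher for 27 genes and lower for 1, with a median of 3.70 points against 0 over all genes. Scg3 was in 36.4% of marker-rich and 1.22% of marker-poor main cells and in 40.7% and 2.56% of pilot cells. Chgb was in 19.6% and 0% of main and 37% and 0% of pilot cells, Sncg in 53.8% and 7.32% and in 44.4% and 5.13%. Apba2 differed from these, with 28.7% and 25% of main and 29.6% and 25.6% of pilot cells, as did Napa with 30.1% and 26.2% and with 40.7% and 46.2%. Marker-rich main cells had more detected genes at equal reads, a median of 1631 against 1410.5, and the part of this in the difference was not tested. Across main cells, Spearman's rho between summed reads of the set and of the markers was -0.02 on Day 2, 0.51 on Day 5 and 0.65 on Day 6, and 0.64 in the pilot on Day 6. The cells of a group share their plates and cultures, so these are descriptions of that group.

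**Figure D5:**
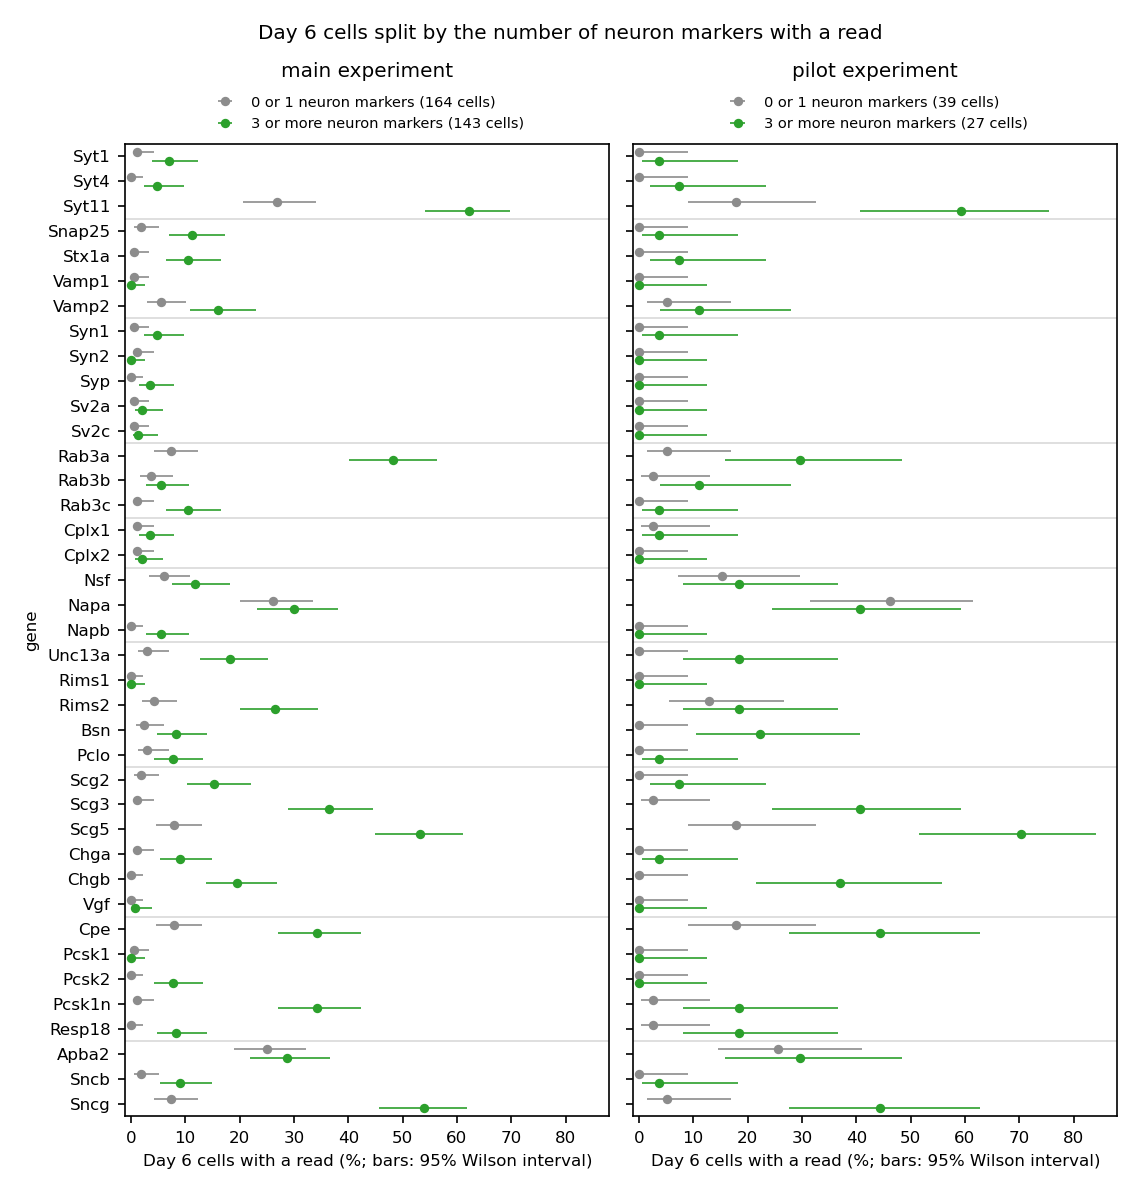
Share of Day 6 cells with a read (%, horizontal axis; bars are 95% Wilson intervals) of each gene in cells with a read of 3 or more (green) or of 0 or 1 (grey) of 6 neuron markers, in the main and pilot experiments. Scg3, Scg5, Chgb, Sncg and Syt11 have intervals apart in both experiments, whereas those of Apba2, Napa and Nsf overlap.

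Marker levels of the groups moved alongside. All 6 neuron markers were read in every main group, with 186 summed CPM (without TMM scaling) on Day 2, 1856 on Day 6 and 4300 in eGFP++, and the pilot had 91.1, 1598 and 5899. Stem cell markers (Pou5f1, Nanog, Zfp42, Dppa5a, Tdgf1 and Esrrb) went from 4356 to 12.3 and from 3099 to 31.4 summed CPM between Days 2 and 6. All 6 motor neuron markers (Isl1, Mnx1, Slc18a3, Chat, Lhx3 and Slc5a7) were read in main eGFP++ cells and 5 in the pilot, with 1045 and 1292 summed CPM. Since granins also mark endocrine cells, their markers were checked: Ins1, Ins2 and Gcg had no read in any group, and Dbh was at most at 1.60 CPM, in the pilot on Day 6. Neurod1 and Insm1, which neurons share with endocrine cells, made up nearly all of the 161 summed CPM of that list in each Day 6 sum. Of the glial markers, Gfap, S100b and Aqp4 had no read on Day 6, while Mbp, whose locus also yields transcripts outside glia, was at 36 and 69.1 CPM on Day 6 and 81 and 263 in eGFP++.

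Rest, the repressor that binds RE1, was at 18.6, 8.56, 2.20, 4.63 and 0.651 CPM in main cells on Days 2 to 6 and at 22.9, 22.8, 7.25, 4.15 and 4.52 CPM in pilot cells. In eGFP++ cells it was at 0.137 and 0.0596 CPM. Its share of cells had a mean slope of -1.70 points per day, which did not pass (permutation adjusted p = 0.0535), nor did Day 6 against Day 2 (edgeR adjusted p = 0.384). Of its 7 partners on the list, Rcor2, Hdac1, Hdac2, Kdm1a and Sin3a were read in all groups, Rcor1 had no read in the pilot on Day 4 and Rcor3 none in the pilot on Days 2 to 5. None of the 8 genes was called between Day 6 and Day 2. Hdac1 was at 236 and 113 CPM on main Days 2 and 6 and at 217 and 89.3 in the pilot (edgeR adjusted p = 0.203), and Sin3a at 43 and 22.1 and at 54.4 and 36.9. Whether Rest bears on Scg2, Syn1 or Unc13a was not tested.

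Other genes of the pathway were taken from lists of synaptic vesicle and active zone genes, of secretory granule genes, and of related genes for membrane fusion in all cells. Of 49 other synaptic vesicle genes tested, edgeR called 3 higher on Day 6 than on Day 2 and none lower, with a median log2 change of 2.69, against 0.585% and 0.249% of all genes. Among them were Slc18a3 (the vesicular acetylcholine transporter) at 10.11 ± 1.86 (SE; edgeR adjusted p = 0.0371) and Lin7a (a scaffold partner of the Mint adaptors) at 11.65 ± 2.20 (edgeR adjusted p = 0.0402). In the slope test Lin7a and Atp6v1g2 were among 3 called rising, and Ppfia4 was called falling, of 29 tested and against 3.82% and 1.75% of all genes. The nearest to a call as lower were Ppfia4 at -4.07 (edgeR adjusted p = 0.415) and Syt9 at -4.84 (edgeR adjusted p = 0.483).

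Of 25 other granule genes tested, none was called, with a median log2 change of 2.73 and 20 above 0. Sst (somatostatin) had 15.24 ± 3.36 (edgeR adjusted p = 0.0932) and Cartpt (a neuropeptide) 11.01 ± 2.99 (edgeR adjusted p = 0.150). The nearest to a call as lower were Calca and Pdyn, at -2.88 and -6.95. Of 35 related genes for general membrane fusion none was called in edgeR, the median was 0.28 and 22 were above 0. Stx3 (a plasma membrane syntaxin of epithelia) was at -3.38 (edgeR adjusted p = 0.175) and was called falling in the slope test at -6.38 points per day (permutation adjusted p = 0.0273), while Bet1l (a Golgi SNARE) was called rising. These calls, 1 of 35 in each direction, are near the shares over all genes. Vamp8, Stx5a and Stx6 were at -2.39, 1.91 and 1.59. The lists were chosen with results of these data known, and their counts are descriptions.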

How the data were processed

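Single-cell RNA-seq (modified CEL-seq) of 2744 wells on 35 plates was analysed, 2304 wells of the main and 440 of the pilot experiment. The values are read counts per gene and well, deposited by the authors without normalization and without molecular identifiers. The submitters' processing notes name TopHat2 2.1.1, HTSeq 0.6.1 and mm10, and no source used here states the strand setting of the counting. Each table held 23968 genes, 92 spike-ins and 27 names that are not alike between tables, which were left out. Summary lines held 34.9% and spike-ins 6.16% of reads and stayed out of library sizes. A further 40 columns that match no sample were not used.

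Cells with at least 500 detected genes were kept and summed per group and experiment, 12 sums in the fit (the eGFP+ plate has no replicate and was left out of it). edgeR 4.0.16 in R 4.3.3 fitted group and experiment by quasi-likelihood with TMM scaling over the 16080 genes that passed filterByExpr, with Benjamini-Hochberg adjustment at 0.05. Shares of cells came from cells thinned to 10000 gene reads, which kept 99.3% of main and 99.7% of pilot cells. Their slope over Days 2 to 6 was tested by 14400 exact permutations within experiments, two-sided, over 11687 genes, with a smallest possible p of 0.000138889. Each edgeR or DESeq2 p-value rests on the spread between 2 experiments, which share their protocol. That spread was estimated over the 12 sums and moderated across genes, so a small p does not rest on the gene's own spread alone. The permutation p measures how often reassigned days gave a mean slope at least as large in size, not that spread. DESeq2 1.42.0 was an alternative. Shares, intervals and figures were made in Python 3.11.15 (scipy 1.17.1, matplotlib 3.10.9). Both tests were tested on simulated data: for Day 6 against Day 2, edgeR called 0 of 50 genes changed 4-fold, 24 of 50 changed 16-fold and 27 of 50 changed 64-fold among 16080 genes.

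The experiment was kept as a block because the labels name it and the design text calls the experiments biological replicates. Deviations of the same experiment correlated by 0.0479 to 0.251 (median 0.107) over 15 pairs of groups. The 39 genes, their roles and all other lists were chosen with earlier results of these data known. Values in every group are given for genes called in a test and, in each role, for those with the highest and lowest shares, and other genes by counts or single values. From the other lists, genes called and the 2 nearest to a call in each direction are named. The values of 1 gene of these lists are not reported here. Genome positions are GRCm38 (mm10), and promoters are from RefSeq.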

Additional observations from a re-analysis of the deposited data

How the results depend on the processing

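The number of the 39 genes called for Day 6 against Day 2 was 4. It was 17 with DESeq2 and 21 with cells counted in place of reads, where 8.10% and 14.9% of all genes were called higher. With only the 2 groups compared in the fit it was 8, where 258 of all 14038 genes were called higher and 250 lower. Without the replicate block for the experiment it was 2 (Scg2 and Syt11), where 78 of all 16080 genes were called higher and 29 lower. Leaving out 1 sum in turn gave 0 to 1, with 0 without the Day 2 or the Day 6 pilot sum. For Day 4 against Day 2 the number was 0, with 5 by DESeq2 and 5 by cells counted. For Day 5 against Day 4 it was 0, with 5 by DESeq2 and 4 by cells counted. For Day 6 against Day 5 it was 0, with 2 by DESeq2 and 5 by cells counted. For Day 6 eGFP++ against Day 6 it was 0 under all 13 alternatives. In the slope test 3 genes were called, 0 without thinning, 0 without the filter on rare genes, 1 without plates of many failed wells and 0 with either experiment alone, where no call is possible. Onsets in the pilot numbered 7, and 18 without thinning. A fit without 1 sum had 1 sum left in that group, and both plates of many failed wells were of Day 4. Why the numbers differ between settings was not tested.

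Over all genes the number called ranged over these settings from 2 to 942 for Day 4 against Day 2, 0 to 282 for Day 5 against Day 4, 8 to 3540 for Day 6 against Day 2, 0 to 255 for Day 6 against Day 5 and 0 to 761 for eGFP++ against Day 6. The log2 changes of Apba2, Scg2, Sncg, Syt11 and Scg3 kept their direction throughout. Over the 13 alternatives, edgeR and DESeq2 alike, their adjusted p ranged from 7.83e-17 to 0.177 for Apba2, 3.43e-09 to 0.177 for Scg2, 2.16e-07 to 0.420 for Sncg, 6.84e-05 to 0.411 for Syt11 and 1.21e-12 to 0.403 for Scg3. Reads without molecular identifiers, 57 pilot cells on Day 4 and 39 pilot eGFP++ cells limit what can be seen of rarely read genes.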
